A study of Danio rerio with 8 samples.

Results

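The genes examined encode the proteins of the mitochondrial ribosome. They were taken as every gene row whose zebrafish symbol, case ignored, starts with mrpl or mrps followed by a digit, which gave 75 of 32520 gene rows, 47 with large subunit symbols and 28 with small subunit symbols. RNA was sequenced from the cardiac ventricle of adult zebrafish, either cox7a1-/- mutants or their wildtype siblings. Both groups had been cryoinjured, which kills a region of the ventricle by freezing, and were sampled 7 days after the injury. Each genotype had 4 pools of 5 ventricles, and no uninjured heart was analysed here. The sources used here name neither the mutant allele nor an age beyond adult. The protein Cox7a1 belongs to complex IV of the respiratory chain, the enzyme that passes electrons to oxygen.

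The mitochondrial ribosome makes the few proteins encoded by the mitochondrial genome, among them the core subunits of complex IV, so its output and the nuclear-encoded subunits such as Cox7a1 meet in the same complex. Its own proteins are encoded in the nucleus, made in the cytosol and imported. The large subunit joins amino acids and holds the exit tunnel, and the small subunit binds and decodes the mRNA. Some of its proteins have relatives in the bacterial ribosome and others occur only in mitochondria. Roles given below are known mainly from mammalian mitochondrial and bacterial ribosomes.

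Mutant replicates 1 to 4 held 41556101, 47461164, 48108612 and 69057989 counts, and wildtype pools between 49788133 and 53597730. Mutant replicate 4 was thus the deepest of the 8 pools and mutant replicate 1 the shallowest. For cox7a1 itself the 4 wildtype pools, in replicate order, had 210, 278, 286 and 211 CPM (counts scaled to library size), and the 4 mutant pools had 59.5, 113, 88.5 and 194 CPM. Pool values below are in the same order. The genotypes did not overlap for this gene (log2 fold change -1.11 ± 0.295 SE), which did not pass the adjusted threshold (edgeR adjusted p = 0.0776; two-sided exact permutation p = 0.0286, the smallest that 4 pools against 4 allow). Cardiomyocyte markers, of which 8 of 10 listed symbols were matched and none was at 0, summed to 37070 to 44990 CPM in wildtype and 34810 to 56750 CPM in mutant pools. In pooled tissue, fewer cells of a type and less RNA per cell cannot be told apart.

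All 75 genes were expressed well enough to be tested, with 55 to 5541 counts per pool. Compared per length, as CPM per kilobase of exon, the median wildtype level was 18.0 for large subunit genes and 14.8 for small subunit genes, against 3.06 for all tested genes. Nuclear subunits of complex I had a median of 111 and proteins of the cytosolic ribosome 393 on the same scale. The mitochondrial ribosome genes thus lay above the typical gene and below both of these groups in level.

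MRPL33, a small protein of the large subunit with a bacterial relative, was the highest per length in wildtype pools, at 37.4 ± 4.79 (SD, n = 4). It had 32.0 ± 5.205 in mutant pools. MRPL2, which lies at the catalytic core, followed at 35.5 ± 3.63 in wildtype pools, within the spread of MRPL33. In the small subunit, MRPS34, a mitochondria-specific protein, led at 33.9 ± 6.21, and MRPS7, a protein of the head, had 29.9 ± 4.35 CPM per kilobase of exon. These neighbours in the order did not differ beyond their spread. In mutant pools MRPL2 had 38.5 ± 11.8 and MRPS34 37.8 ± 12.7, so both means lay above that of MRPL33. The lowest large subunit gene in wildtype pools was MRPL22, a tunnel exit protein, at 1.355 ± 0.317. The lowest small subunit genes there were MRPS25 at 3.23 and MRPS15 at 4.22. Levels per length spanned 27.6-fold in wildtype pools. The low values of MRPL22, MRPS25 and MRPS15 go with annotated exon lengths of 5613, 6188 and 5598 bases, against a median of 1081 for all members. The other low gene, mrpl58, which encodes a relative of release factors built into the large subunit, had 3.06 ± 1.27 CPM per kilobase of exon in wildtype pools.

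**Figure D1:**
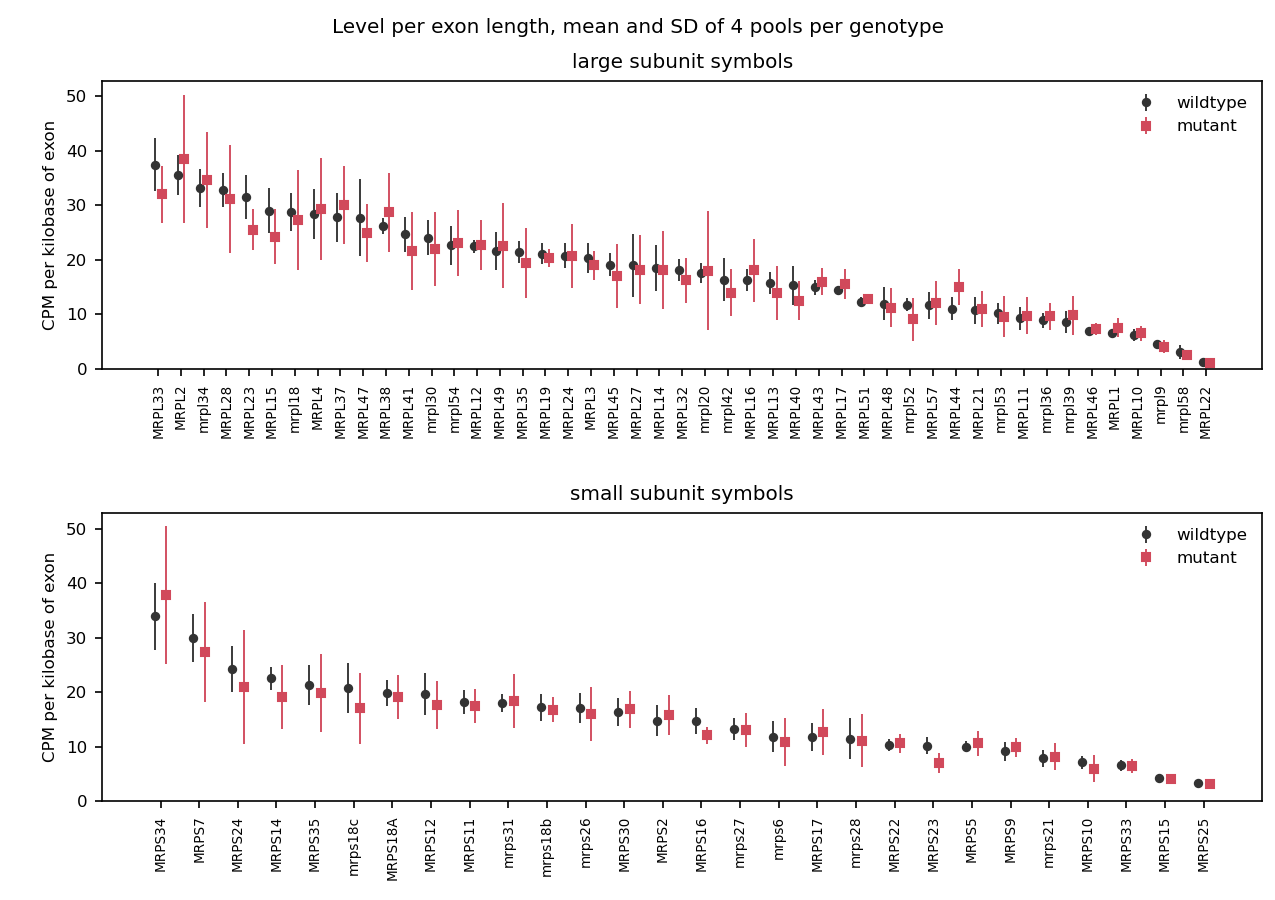
Level per exon length (y axis, CPM per kilobase of exon) of each gene, ordered by its wildtype mean. Points are means and bars SDs of 4 pools per genotype. MRPL33 and MRPS34 lead their subunits at 37.4 and 33.9 in wildtype pools, and the mutant bars are the wider ones for most genes.

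Mutant and wildtype pools were compared gene by gene. None of the 47 large subunit genes passed the adjusted threshold of 0.05, with 0 higher and 0 lower, where 2.02% of all tested genes passed (1.14% higher and 0.88% lower, edgeR with Benjamini-Hochberg adjustment). Of the 28 small subunit genes, 0 were higher and 0 lower. At an unadjusted p under 0.05, 2 large and 1 small subunit gene were counted, or 4.0% of the 75 genes, against 18.0% of all tested genes. At an adjusted threshold of 0.1, 0 of the 75 and 4.97% of all tested genes were called. DESeq2 and limma-voom also called 0 of the 75, where they called 6.17% and 2.06% of all tested genes. For none of the 75 did the 4 mutant pools lie wholly above or below the 4 wildtype pools, which happened for 11.7% of all tested genes.

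The median log2 fold change, mutant against wildtype, was -0.03 over the large subunit, with 22 genes above and 25 below 0. It was -0.05 over the small subunit, with 9 above and 19 below 0, and 0.003 over all tested genes. Log2 fold changes ran from -0.36 to 0.44 in the large and from -0.54 to 0.16 in the small subunit. Standard errors ran from 0.105 to 0.310 on the log2 scale. The 95% intervals of all 75 genes lay within 1 log2 unit of no difference, the farthest bounds being -0.97 and 0.83, and those of 27 genes lay within 0.5. Smaller differences were not resolved at this spread.

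**Figure D2:**
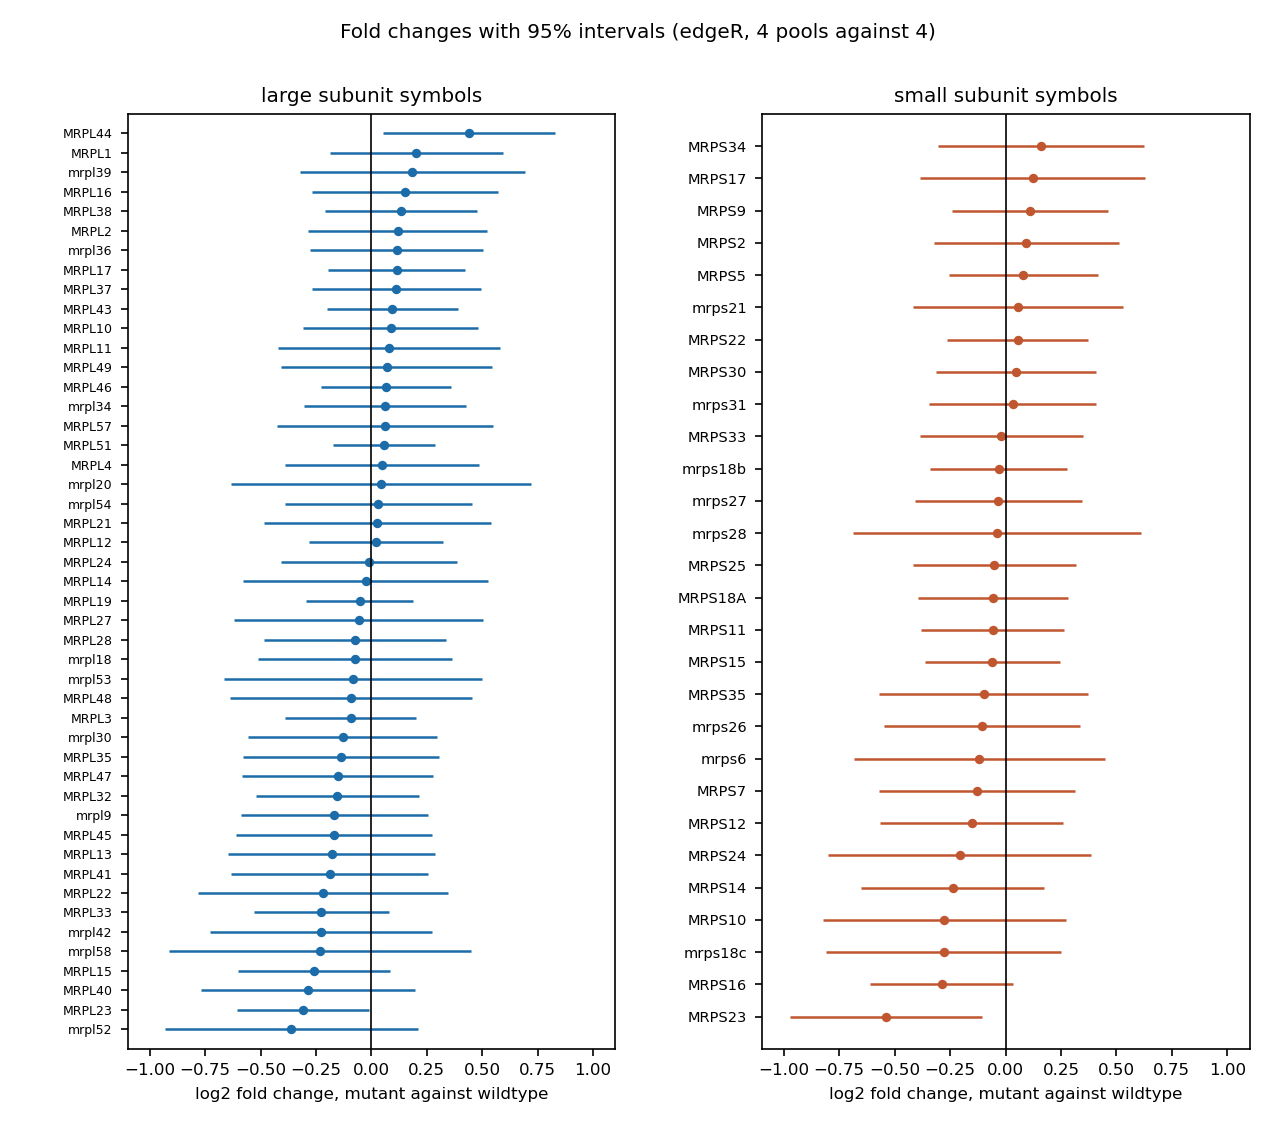
Log2 fold change of each gene, mutant against wildtype (x axis), with its 95% interval from the edgeR fit on 4 pools per genotype. The intervals of MRPL44, MRPL23 and MRPS23 do not cross 0, and no gene passed the adjusted threshold.

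In the large subunit the smallest p belonged to MRPL44, a protein with a ribonuclease III fold that sits near the tunnel exit. Wildtype pools had 16.4, 19.3, 16.01 and 12.02 CPM of MRPL44, and mutant pools 18.2, 20.7, 19.0 and 28.5 CPM. Mutant replicate 4 was the highest, and mutant replicates 1 and 3 lay below wildtype replicate 2. The log2 fold change was 0.44 ± 0.177 (SE; unadjusted p = 0.0299, edgeR adjusted p = 0.221). MRPL23, one of the ring of proteins around the tunnel exit, had 30.75, 34.4, 41.6 and 34.3 CPM in wildtype and 24.0, 29.97, 26.3 and 33.6 CPM in mutant pools. Only mutant replicate 4 reached the wildtype range (log2 fold change -0.31 ± 0.135, edgeR adjusted p = 0.259).

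The large subunit genes next in order of p had an edgeR adjusted p of 0.42 to 0.66. They were MRPL15 at -0.26 ± 0.157, MRPL33 at -0.23 ± 0.139, mrpl52 at -0.36 ± 0.259, MRPL40 at -0.29 ± 0.220, mrpl42 at -0.23 ± 0.229 and MRPL1 at 0.20 ± 0.178, all as log2 fold change and SE. MRPL15 belongs to the bacterial-type core, mrpl52 and MRPL40 to the central protuberance that faces the small subunit, and MRPL1 to the mobile stalk beside the site where tRNAs leave. Levels of mrpl52 were 8.07, 7.14, 9.24 and 8.30 CPM in wildtype and 3.501, 6.14, 5.72 and 10.07 CPM in mutant pools. The highest and the lowest value of mrpl52 were thus both in mutant pools, replicates 4 and 1.

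In the small subunit the smallest p belonged to MRPS23, a mitochondria-specific protein. Its level was 12.8, 11.95, 9.60 and 9.445 CPM in wildtype and 5.35, 6.38, 8.88 and 9.49 CPM in mutant pools. Mutant replicates 1 to 3 lay below every wildtype pool, and replicate 4 lay just above the lowest one. The log2 fold change of MRPS23 was -0.54 ± 0.197 (unadjusted p = 0.0187, edgeR adjusted p = 0.182). MRPS16, a relative of a bacterial protein of the small subunit body, had 13.7, 18.2, 18.7 and 14.3 CPM in wildtype and 11.2, 12.7, 14.1 and 15.1 CPM in mutant pools, with a log2 fold change of -0.29 ± 0.148.

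MRPS14 and MRPS10 of the head had log2 fold changes of -0.24 ± 0.189 and -0.28 ± 0.250, and mrps18c of the platform -0.28 ± 0.242. MRPS12, the protein of the decoding centre, had -0.15 ± 0.189, and MRPS24, on the path of the mRNA, -0.21 ± 0.271. MRPS34 had 0.16 ± 0.212. Named as small subunit proteins but built into the large subunit, MRPS30 and MRPS18A had 0.04 ± 0.165 and -0.05 ± 0.154. The gene kgd4, which carries the synonym mrps36 and whose protein is now placed in a dehydrogenase complex, is not among the 75 and had a log2 fold change of -0.23 ± 0.209.

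By place in the ribosome, the median log2 fold change was 0.05 for the 5 genes grouped here as at or near the catalytic core. These were MRPL2, MRPL3, MRPL4, MRPL16 and MRPL27. The median was -0.15 for the 7 of the tunnel exit, among them MRPL17, MRPL24, MRPL45 and MRPL47. It was -0.09 for the 7 of the central protuberance and 0.08 for the 4 of the stalks, MRPL1 on one side and MRPL10, MRPL11 and MRPL12, where translation factors bind, on the other. In the small subunit it was -0.18 for the 4 of the head, -0.06 for the 5 of the platform and -0.04 for the 4 on the decoding centre and mRNA path. The 47 genes with a bacterial relative had a median of -0.06 and the 28 mitochondria-specific ones 0.005. No gene of any of these groups passed the threshold, and the groups were not tested against each other.

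The genes varied together over the pools. Mutant replicate 4 was the highest of the 8 pools for 57 of the 75 genes (76.0%), where it was highest for 16.4% of all tested genes. Mutant replicate 1 was the lowest for 41 of the 75, where it was lowest for 13.8% of all tested genes. The mean log2 CPM of the large subunit genes was 4.03, 4.25, 4.04 and 3.89 in wildtype pools and 3.67, 3.87, 3.94 and 4.48 in mutant pools. For the small subunit genes it was 4.02, 4.34, 4.12 and 3.86 in wildtype and 3.70, 3.85, 3.93 and 4.48 in mutant pools. Both subunits thus placed the 4 mutant pools in the same order, with replicate 4 above every wildtype pool, replicates 1 and 2 below every wildtype pool, and replicate 3 at the lower end of the wildtype range.

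**Figure D3:**
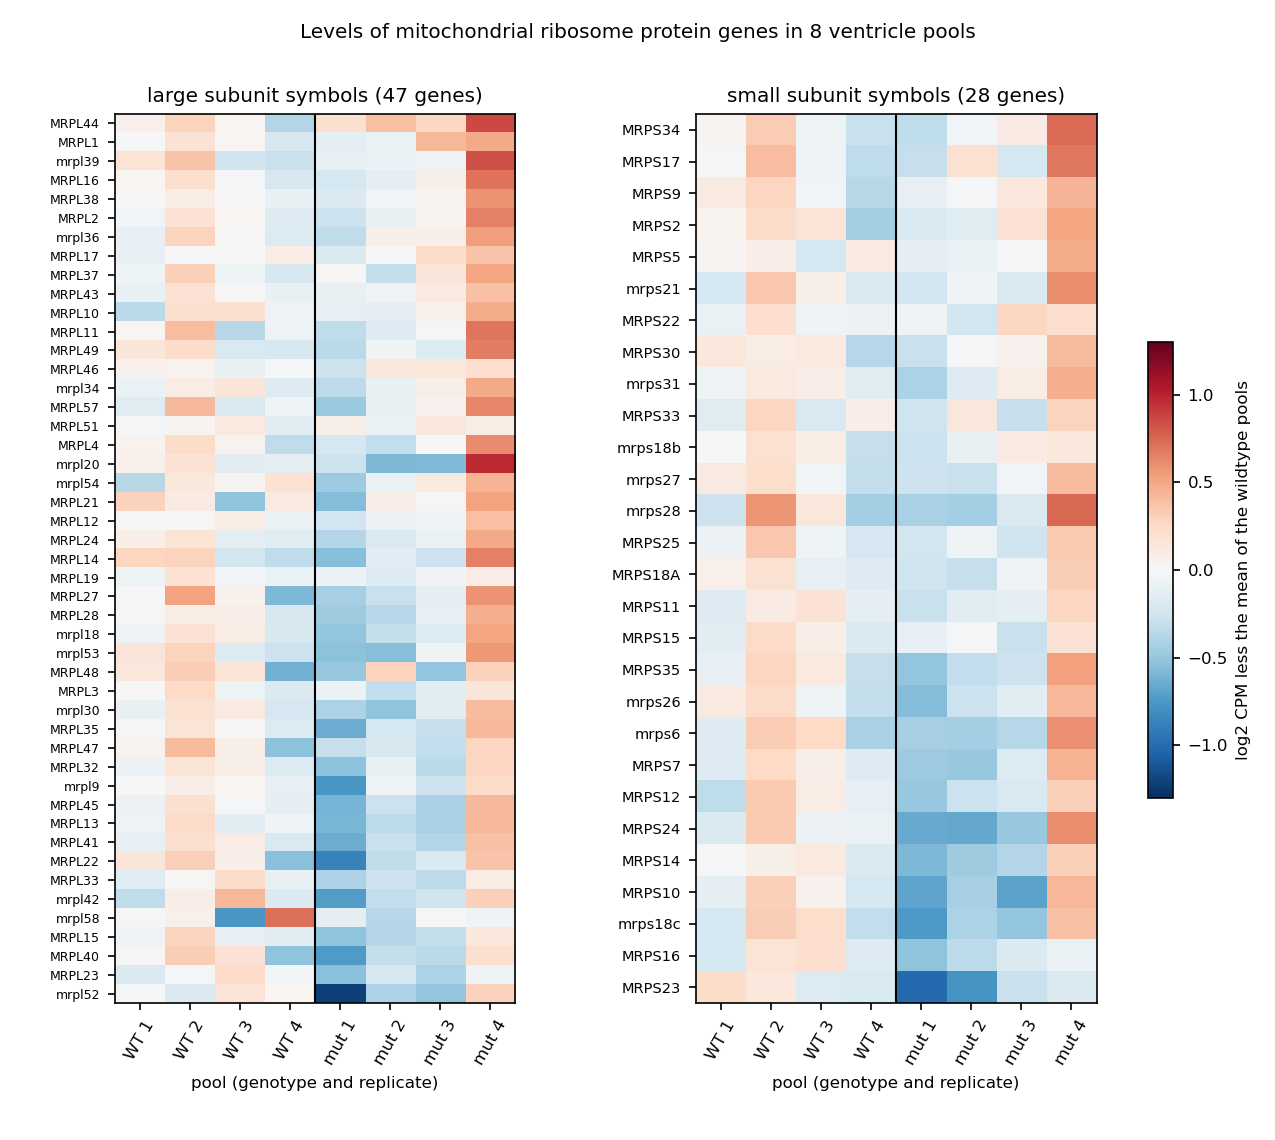
Log2 CPM of each gene in each pool less the mean of its 4 wildtype pools (colour), with genes ordered by fold change and a black line between the genotypes. The column of mutant replicate 4 is red for most genes and that of mutant replicate 1 blue, as the highest pool for 57 genes and the lowest pool for 41 genes.

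Within mutant pools the median SD of the log2 level was 0.40 over large and 0.36 over small subunit genes, against 0.19 and 0.23 within wildtype pools. The mutant SD was the larger one for 66 of the 75 genes (88%), and for 51.6% of all tested genes. Much of the spread was common to the members: the median SD within a genotype was 0.317 over the 75 genes and 0.165 once the mean of all members in each pool was taken off, and it fell for 68 of them. The gene mrpl20, a large subunit core protein, had CPM values of 11.8, 12.9, 10.3 and 10.5 in wildtype pools and 9.37, 7.56, 7.61 and 22.3 in mutant pools (chosen after its values were seen). It showed the high mutant replicate 4, but its lowest value was in mutant replicate 2, not replicate 1. MRPL51, also chosen after its values were seen, had the smallest SE and did not have its highest value in mutant replicate 4, with 26.4 to 31.7 CPM in wildtype and 27.4 to 32.2 CPM in mutant pools.

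Other gene groups varied over the same pools. The mean log2 CPM of 35 nuclear complex I subunits was 5.57, 5.996, 5.996 and 6.83 in mutant pools and 6.07 to 6.51 in wildtype pools, and that of 73 cytosolic ribosome proteins was 8.39, 8.66, 8.57 and 9.39 against 8.72 to 8.85. Mutant replicate 4 was the highest pool for 32 of the 35 and 72 of the 73. The 13 protein genes of the mitochondrial genome, whose mRNAs the mitochondrial ribosome reads, differed from this in mutant replicate 4. Their means were 11.87, 12.16, 12.13 and 12.20 in mutant and 11.92 to 12.44 in wildtype pools, and 1 of 13 was highest in mutant replicate 4. In mutant replicate 1 their mean was the lowest of the 8 pools. Of the 13, 6 (46.2%) were lowest there, against 13.8% of all tested genes. Cardiomyocyte markers had means of 10.44, 10.66, 10.85 and 11.04 log2 CPM in mutant pools and 10.63 to 10.89 in wildtype pools. Of the 9 tested, 7 (77.8%) were highest in mutant replicate 4, against 16.4% of all tested genes. Mutant replicate 1 was the lowest pool for 6 of the 9 (66.7%), against 13.8% of all tested genes. Skeletal muscle markers summed to 50.4 CPM in mutant replicate 1, against 5.61 to 6.765 in the other mutant and 9.07 to 17.4 in wildtype pools. Of the 50.4 CPM, 37.8 came from the gene myhz2 alone, and 4 of 6 listed symbols were matched.

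**Figure D4:**
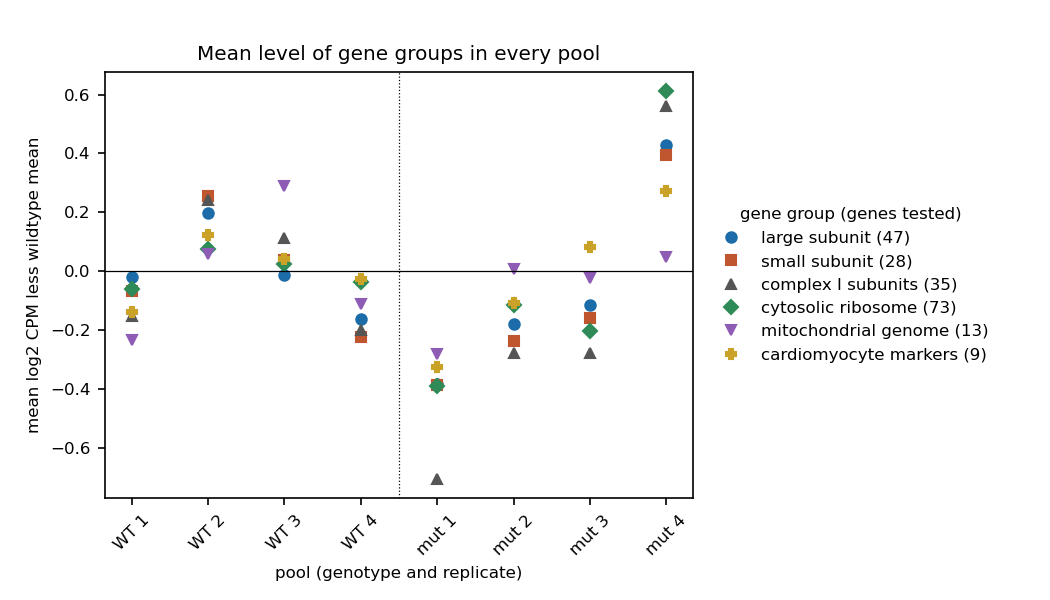
Mean log2 CPM of 6 gene groups in each pool, less the mean of the wildtype pools (y axis). Large and small subunit genes, complex I subunits, cytosolic ribosome proteins and cardiomyocyte markers are highest in mutant replicate 4 and lowest in mutant replicate 1. The 13 genes of the mitochondrial genome change little between mutant replicates 2, 3 and 4.

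A trend on gene length also varied over the pools, with opposite signs in mutant replicates 1 and 4. Mutant replicate 3 lay near replicate 1 in this trend. The deviation of long genes less that of short genes, over all tested genes, came to 0.177, 0.0169, 0.160 and -0.176 (log2) in mutant pools, and to -0.0885 to 0.0541 in wildtype pools. The ribosome genes are short, with a median of 1081 exon bases against 2467 for all tested genes. Among them, the 37 shorter genes had a median log2 fold change of -0.09 and the 38 longer ones 0.04, and the correlation of log2 fold change with log2 exon length was 0.268 over the 75 genes, which share their libraries (a description over genes, with no test). With the trend on length removed from each library, the medians were 0.02 for the large and -0.003 for the small subunit, and 0 genes of either were called. The part of gene length, cell content, depth and RNA quality in the pool pattern was not tested.

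Leaving out mutant replicate 4 moved both subunits further below 0. The median log2 fold change was then -0.23 for the large subunit, with 42 of 47 genes below 0, and -0.20 for the small subunit, with all 28 below 0, against -0.005 over all tested genes. Unadjusted p under 0.05 was reached by 14 large and 9 small subunit genes, 30.7% of the 75 against 20.1% of all tested genes. No gene of the 75 passed the adjusted threshold, where 2.07% of all tested genes did. Over all fits that left out 1 pool, medians reached up to 0.05 for the large and 0.03 for the small subunit. Because mutant replicate 4 was the highest pool for 57 of the 75, leaving it out lowers these fold changes in advance.

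The smallest adjusted p without that pool belonged to MRPS24, at 0.0644 with a log2 fold change of -0.62 (edgeR). Its values were 13.85, 19.99, 15 and 14.9 CPM in wildtype and 9.97, 9.89, 11.2 and 24.1 CPM in mutant pools, so that 3 mutant pools lay below and the last above every wildtype pool. MRPS14 and MRPS10 followed, with edgeR adjusted p = 0.0761 and 0.0872. MRPS14 had 16.1, 17.3, 17.9 and 14.4 CPM in wildtype and 10.9, 11.9, 12.5 and 20.3 CPM in mutant pools, the same arrangement. MRPS10 had 7.74, 10.5, 8.80 and 7.23 CPM in wildtype and 5.26, 6.28, 5.21 and 11.45 CPM in mutant pools, again the same arrangement.

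The length trend was also removed in a fit without mutant replicate 4, chosen with the data in view. There the medians were -0.12 for the large subunit, with 35 genes below 0, and -0.16 for the small subunit, with 22 below 0. Of the 75, 12% then had an unadjusted p under 0.05, against 18.7% of all tested genes. The adjusted threshold was passed by 0 of the 75 and by 1.89% of all tested genes. The smallest adjusted p was 0.132, for MRPS10.

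**Figure D5:**
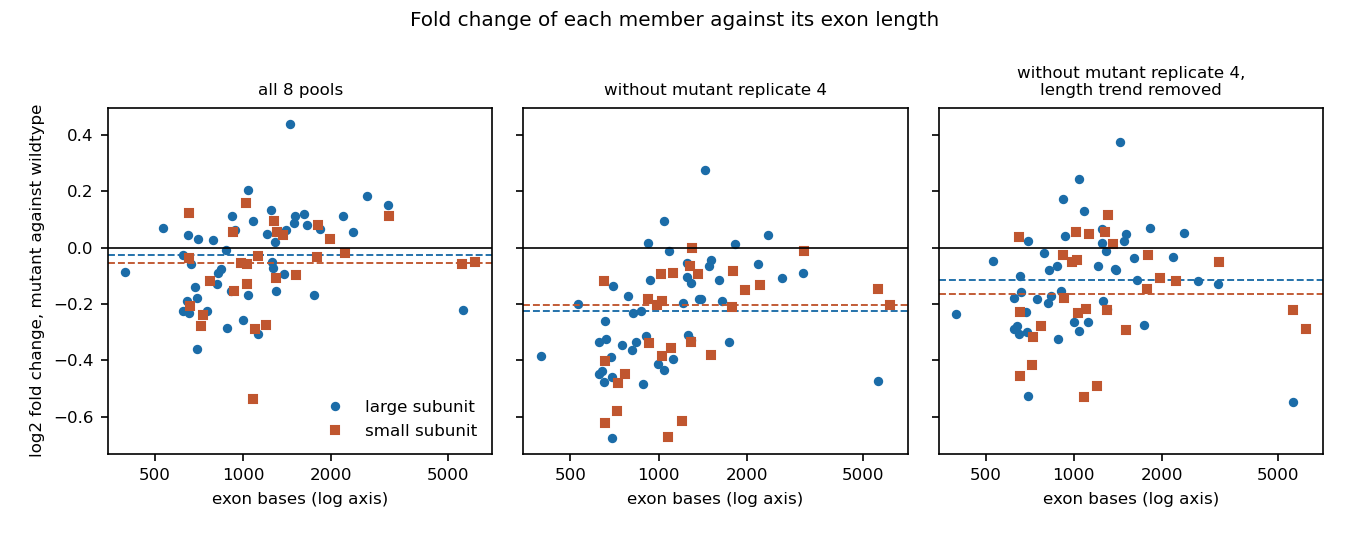
Log2 fold change of each gene, mutant against wildtype (y axis), against its exon length in bases (x axis, log scale). The panels show all 8 pools, the pools without mutant replicate 4, and the latter with the length trend removed, and dashed lines mark the medians of each subunit, -0.03 and -0.05, -0.23 and -0.20, and -0.12 and -0.16.

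The 75 genes lie on 22 chromosomes (GRCz11). Chromosome 15, which holds cox7a1, carries 4 of them: MRPL28 at 3.275 Mb from it (log2 fold change -0.07), MRPS23 at 9.95 Mb, MRPS22 at 13.45 Mb (0.06) and MRPL44 at 14.8 Mb. MRPS23 spans chr15:30350061-30354786 on the plus strand and MRPL44 chr15:35214546-35224481 on the minus strand, so that 2 of the 3 members with an unadjusted p under 0.05 are on this chromosome. Over the 622 tested genes of chromosome 15, 27.7% had an unadjusted p under 0.05 and 4.66% passed the adjusted threshold. Over all tested genes these shares were 18.0% and 2.02%. The part of this position in the values of MRPS23 and MRPL44 was not tested.

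Some members lie side by side. MRPS11 and MRPL46, one from each subunit, face away from each other on chromosome 7 with 220 bases between them, and had log2 fold changes of -0.06 and 0.07. MRPL16 and mrpl39 follow each other on the same strand of chromosome 1 with 336 bases between them, and had 0.15 and 0.18.

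Ribosome proteins whose names do not begin with mrpl or mrps were looked at separately. All 5 tested were above 0 in log2 fold change, with a median of 0.13, and 0 were called, where 2.02% of all tested genes were. DAP3, a GTP-binding protein of the small subunit, had 0.21 ± 0.167, chchd1 0.18 ± 0.146 and AURKAIP1 0.13 ± 0.165. Mutant replicate 4 was the highest pool for all 5, while their mean log2 CPM in mutant replicates 1 to 3, 4.557, 4.565 and 4.754, lay inside the wildtype range of 4.495 to 4.85. Without mutant replicate 4, their median was -0.036, with 3 genes below and 2 above 0.

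Of 27 tested factors that mature the mitochondrial rRNA or assemble the ribosome, 1 rose (adjusted threshold, passed upward by 1.14% of all tested genes), 0 fell, and 8 had an unadjusted p under 0.05, which is 29.6% against 18.0% of all tested genes. The one that rose was MPV17L2, an inner membrane protein needed for ribosome assembly in human cells. It had 1.46, 0.900, 0.777 and 0.574 CPM in wildtype and 2.81, 4.36, 2.11 and 2.615 CPM in mutant pools, with no overlap. Its log2 fold change was 1.67 ± 0.340 (edgeR adjusted p = 0.0348), and the call was lost in 5 of the 8 fits that left out 1 pool, those without wildtype replicate 2 or 3 or mutant replicate 1, 2 or 3, with an adjusted p of up to 0.102. Below 0 and short of the threshold were NGRN, which binds the mitochondrial large subunit rRNA, at -0.61 ± 0.144 (edgeR adjusted p = 0.0534), and MTERF4, which works with an rRNA methyltransferase in joining the subunits, at -0.77 ± 0.220 (edgeR adjusted p = 0.0972). NGRN had 10.2 to 12.8 CPM in wildtype and 6.40 to 8.43 CPM in mutant pools, which did not overlap.

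None of 18 tested factors of mitochondrial translation was called, where 2.02% of all tested genes were. Of the 18, 3 had an unadjusted p under 0.05, which is 16.7% and near the 18.0% of all tested genes. Without mutant replicate 4, where 2.07% of all tested genes were called, 1 of the 18 was called (edgeR adjusted p = 0.0418). The median log2 fold change of the 18 was then -0.17, with 11 below and 7 above 0. That pool was the highest for 12 of the 18, so leaving it out lowers these fold changes in advance. The gene called there was not GFM1, TSFM or LRPPRC. With any 1 pool left out, their edgeR adjusted p was 0.0956, 0.0865 and 0.229 at the lowest. GFM1, the elongation factor that moves the ribosome along the mRNA, had 36.2, 38.25, 31.65 and 28.9 CPM in wildtype and 43.7, 38.6, 48.7 and 60.2 CPM in mutant pools, with no overlap and a log2 fold change of 0.50 ± 0.149 (edgeR adjusted p = 0.110). GFM1 also lies on chromosome 15. TSFM, which recycles the elongation factor that brings tRNAs, had 0.47 ± 0.158, and LRPPRC, which stabilises mitochondrial mRNAs, 0.29 ± 0.126.

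Among 15 tested genes of mitochondrial transcription and RNA processing, 1 rose and 0 fell, where 1.14% of all tested genes rose and 0.88% fell. An unadjusted p under 0.05 was reached by 2 of the 15, which is 13.3% against 18.0% of all tested genes. The gene that rose was tbrg4, also known as FASTKD4, which stabilises several mitochondrial mRNAs. It had 10.7, 11.8, 12.8 and 10.7 CPM in wildtype and 20.02, 19.1, 22.25 and 17.4 CPM in mutant pools, and every mutant pool lay above every wildtype pool. The log2 fold change was 0.77 ± 0.123 (edgeR adjusted p = 0.0142), and without mutant replicate 3 the adjusted p was 0.0605. ELAC2, which trims mitochondrial tRNAs, had 0.35 ± 0.142, and POLRMT, the mitochondrial RNA polymerase, 0.32 ± 0.149, neither past the threshold.

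The mRNAs that the mitochondrial ribosome translates were not called either. Of the 13 protein genes of the mitochondrial genome 0 passed, with a median log2 fold change of -0.08, and MT-CO2, a core subunit of complex IV, had -0.22 ± 0.147. Of all tested genes, 2.02% were called in the main comparison and 18.0% had an unadjusted p under 0.05. Nuclear complex I subunits had 0 of 35 called and a median of -0.11, and cytosolic ribosome proteins 0 of 73 called and a median of 0.04. In both lists 0 genes had an unadjusted p under 0.05. When mutant replicate 4 was left out, both lists moved down, as the 75 genes did. The complex I median was already below 0, and that of the cytosolic ribosome crossed 0. Complex I subunits then had a median of -0.45, with 34 of 35 below 0 and 26 at an unadjusted p under 0.05. Cytosolic ribosome proteins had a median of -0.23, with 70 of 73 below 0 and 31 at an unadjusted p under 0.05. Of all tested genes, 20.1% reached this p in that fit. The pool left out was the highest for 32 of the 35 and 72 of the 73, which lowers these fold changes in advance. No gene of either list passed the adjusted threshold without that pool, where 2.07% of all tested genes did. The genes of the mitochondrial genome had a median of -0.09 without it, with 0 of 13 at an unadjusted p under 0.05.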

How the data were processed

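A strand-keeping Illumina kit was used on pools of 5 ventricles, per the labels' protocols. Reads were counted per gene by the authors with featureCounts 2.0.3 (strand setting 2) on the Ensembl 109 annotation of GRCz11, per the file headers. The submitters' processing notes also list FastQC, MultiQC, fastp and STAR, without versions. The deposited values are raw counts for 32520 genes in 8 pools, with no row that names no gene and 0 columns left unused. Deposited exon lengths, another unit, served for levels per length. Symbols came from a table of gene IDs, in which 29201 rows had one, and no 2 members shared a symbol.

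Genes were filtered with filterByExpr at a minimum count of 10, which left 17949, and scaled with TMM factors. These factors were 1.08, 1.04, 0.946 and 0.897 in mutant replicates 1 to 4, and 0.957 to 1.10 in wildtype pools. CPM was computed from the counts with these factors, and log2 levels used a prior count of 2. The test was the quasi-likelihood test of edgeR 4.0.16 in R 4.3.3 on genotype, with Benjamini-Hochberg adjustment over all tested genes at 0.05. SE is the log2 fold change divided by the square root of F, and a positive value means higher in mutant pools. The code was tested on simulated data. Alternatives used other scaling, other filters, DESeq2 1.42.0, limma-voom 3.58.1, a replicate block, each pool left out, a threshold of 0.1, and a smooth trend on log2 exon length removed (lowess span 0.3). The members and lists were chosen with earlier results of these data known. The genes named are those called in the main comparison. Also named are the 8 smallest p and the 2 highest and 2 lowest levels per length in each subunit. Proteins whose name and place differ, and 3 with the smallest p of each other list, complete them. The pools hold different fish, and p-values reflect how pools vary, not single fish. GC content was not checked, and no sequence is shown.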

Additional observations from a re-analysis of the deposited data

Results flagged for a closer look

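For 98 genes, the 75 members and the other genes chosen by rule, and for 12 levels of gene groups and markers, a pool far from the other 3 of its genotype was looked for (gap to the nearest value over the whole range above 0.829). It was found in 13 of 220 sets of 4 values, where chance gives about 1 in 20, and the members share their pools. In mutant replicate 4, far above the other mutant pools, MRPS14 had 20.3 CPM, MRPS24 24.1 CPM, MRPL47 29.8 CPM and mrpl39 40.25 CPM. The same held in that pool for MRPS5 at 24.96 CPM, mrps6 at 13.4 CPM, mrps28 at 12.1 CPM and mrpl20 at 22.3 CPM. In wildtype replicate 2, far above the other wildtype pools, DAP3 had 27.5 CPM, MRPL19 30.05 CPM and MRPS22 15.5 CPM. In wildtype replicate 4, MRPS30 had 17.1 CPM, far below the other wildtype pools. Skeletal muscle markers summed to 50.4 CPM in mutant replicate 1, 37.8 CPM of it from myhz2, far above the other mutant pools.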

How the results depend on the processing

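Under the 18 fits run, 0 of the 75 members were called, although the number of genes called over all tested ones ran from 68 without mutant replicate 3 to 1107 with DESeq2 (363 in the main comparison, 157 with library totals alone, 210 with a replicate block). With 1 pool left out, the median log2 fold change ran from -0.23 to 0.05 for the large and -0.20 to 0.03 for the small subunit. The sign of MRPS30 turned with library totals alone (-0.00555), that of MRPS18A with the length trend removed (0.021), and those of MRPL2 (-0.036) and AURKAIP1 (-0.025) with the length trend removed and mutant replicate 4 left out. With 1 pool left out, signs turned within ranges of -0.11 to 0.22 for MRPL2, -0.43 to 0.046 for mrpl58, -0.094 to 0.28 for MRPS34, -0.20 to 0.081 for MRPS25, -0.15 to 0.032 for MRPS15, -0.20 to 0.022 for MRPS18A, -0.093 to 0.13 for MRPS30 and -0.036 to 0.20 for AURKAIP1. None of these was called under any setting, and the cause was not tested. The number of assembly factors called was 0 with library totals alone, 2 with the CPM filter, 3 with DESeq2, 2 with the length trend removed, 3 at the threshold of 0.1 and 0 to 2 with 1 pool left out. For translation factors it was 1 with DESeq2 (GFM1) and 0 to 1 with 1 pool left out (1 without mutant replicate 4, not GFM1). For transcription and RNA processing it was 0 to 1 with 1 pool left out. Of all tested genes, 6.17% were called with DESeq2 and 4.97% at the threshold of 0.1, against 2.02% in the main comparison. With the CPM filter 410 of 14843 tested genes were called, and with the length trend removed 461 of 17949. The log2 fold change of cox7a1 passed the threshold with no filter (-1.115), with DESeq2 (-1.115), with the length trend removed (-1.07), with it removed and mutant replicate 4 left out (-1.36), and at the threshold of 0.1 (-1.11), and with 1 pool left out it ran from -1.50 to -0.91, with an edgeR adjusted p of 0.0144 to 0.220.

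Replicate numbers were not taken to pair the pools. Deviations of same-numbered pools correlated at 0.246, -0.071, 0.0365 and -0.066 for replicates 1 to 4, and 1 of the 4 wildtype pools matched its own number best. With the replicate block 0 members were called, and 1 large and 1 small subunit gene had an unadjusted p under 0.05. With 4 pools of 5 ventricles per genotype, and deviations that the members shared over the mutant pools, small shifts of either subunit could not be resolved.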
